A study of Homo sapiens with 14 samples.

Results

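FGF8, FGF17, FGF18 and CNPY1 are 4 genes linked to the isthmus, the signalling centre at the junction of midbrain and hindbrain in the embryo. They were taken by gene symbol from count tables of 57445 genes, and all 4 were found once. The tables come from the established human pluripotent stem cell line H9 (WA-09). One group was the undifferentiated line itself (hPSC). The other 4 groups were cultures of the same line on day 11 of differentiation toward midbrain dopamine neurons. All of these had started with the SHH protein SHH C25II, LDN and SB431542 (inhibitors of BMP and TGF-beta signalling), a Rock inhibitor and 0.7 µM CHIR99021 (CHIR). CHIR inhibits GSK3 and thereby activates WNT signalling. The groups differed in the CHIR given from day 4, which was 0.7, 3, 5 or 7.5 µM, until day 9 or day 10 (the records give both). LDN, SB431542 and SHH were withdrawn on day 7. On day 10 every arm was moved to a medium with BDNF, ascorbic acid, GDNF, TGF-beta 3, dibutyryl cAMP and 3 µM CHIR, so the 0.7 µM cultures are a low-CHIR arm, not an arm without CHIR. Each group had 2 libraries, 10 in all. Another 4 libraries of the 7.5 µM protocol, 2 labelled day 16 and 2 labelled day 30, were counted in separate tables and entered no test. They had been replated on day 11 in a medium without CHIR that held DAPT, a Notch pathway inhibitor, and the day 30 cultures were replated again on day 16. The labels do not say that replicates were separate cultures, so p-values measure the spread between these libraries only. Where the replicate number is in the model, p-values measure the spread left after the mean difference between the numbers is taken out.

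The isthmus forms where OTX2, a factor of forebrain and midbrain, meets GBX2, a factor of the hindbrain, with WNT1 on the midbrain side and FGF8 on the hindbrain side. FGF8 is secreted and patterns the tissue on both sides. FGF17 and FGF18 belong to the same subfamily of ligands and are expressed around the same border in mouse and chick embryos. CNPY1 (canopy 1) is a protein of the endoplasmic reticulum that, in zebrafish, promotes FGF receptor signalling at the boundary and is itself induced by FGF. The SPRY, SPRED and DUSP6 proteins restrain the pathway once it is active, and the ETV factors carry its transcriptional output.

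The upstream sequences of FGF18 and CNPY1 are shown because the groups differ in WNT activation. Of the 4 genes, 2 have an entry in the RefSeq promoter set (GRCh38.p14), which gives 250 bases before and 50 after the start of a gene. The form CTTTGAT of the TCF/LEF motif, through which beta-catenin acts on genes, was searched on both strands (reverse complement ATCAAAG), and the match is in capitals. The FGF18 window lies at chr5:171419397-171419696 on the plus strand and that of CNPY1 at chr7:155509825-155510124 on the minus strand.
FGF18: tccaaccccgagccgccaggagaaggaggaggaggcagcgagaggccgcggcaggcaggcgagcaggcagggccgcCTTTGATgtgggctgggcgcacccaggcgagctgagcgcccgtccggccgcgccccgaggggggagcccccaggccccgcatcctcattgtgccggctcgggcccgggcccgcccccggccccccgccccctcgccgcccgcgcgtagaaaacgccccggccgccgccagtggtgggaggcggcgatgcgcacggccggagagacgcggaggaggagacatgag
CNPY1: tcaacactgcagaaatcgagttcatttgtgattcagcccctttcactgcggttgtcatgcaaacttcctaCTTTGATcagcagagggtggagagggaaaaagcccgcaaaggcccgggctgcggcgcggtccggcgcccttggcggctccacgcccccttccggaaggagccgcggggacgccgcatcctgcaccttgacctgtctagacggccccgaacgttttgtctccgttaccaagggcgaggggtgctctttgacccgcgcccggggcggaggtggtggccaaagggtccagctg
In FGF18 the match begins at position -174 and in CNPY1 at position -180, counted from the base before the start as -1. Of all 35116 promoters in the set, 919 (2.62%) hold this motif, and its core CTTTGA, which overlaps it, is in 12.9%. The CNPY1 window shown also holds the core again, nearer the start and outside the capitals. The other 2 CNPY1 entries, at chr7:155533813-155534112 and chr7:155510113-155510412, hold neither form. A match of letters is not a binding site, and it was found both in CNPY1, which was called between concentrations, and in FGF18, which was not.

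At day 11 the 4 genes did not move as a unit over the CHIR concentrations. FGF17 and CNPY1 rose at 7.5 µM against 0.7 µM, by 5.22 ± 0.57 and 4.90 ± 0.47 (log2 fold change ± SE), to mean levels of 30.1 ± 29.4 and 9.67 ± 8.42 CPM (counts per 1000000 counts of genes, ± SD, n = 2) at 7.5 µM, against 0.555 ± 0.248 and 0.275 ± 0.231 CPM at 0.7 µM. FGF8 was already present at 0.7 µM and FGF18 was low at every concentration, and neither passed the test between these concentrations. The verbs "rose" and "fell" are used below for results with an adjusted p under 0.05 in edgeR's quasi-likelihood test with Benjamini-Hochberg adjustment over all 18709 genes tested, with the replicate number in the model as a block. Same-numbered day 11 libraries deviated from their group means together (correlation 0.70 to 0.92 across genes, over the 6 pairs of groups), and without the block the same test called 0 genes between 7.5 and 0.7 µM. In that test 1641 genes had an unadjusted p under 0.05, FGF17 and CNPY1 among them, and DESeq2 without the block called 657. With the block 10.5% of all genes passed, 5.64% of all genes being higher at 7.5 µM, against which the 2 of 4 genes called here are to be read.

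**Figure D1:**
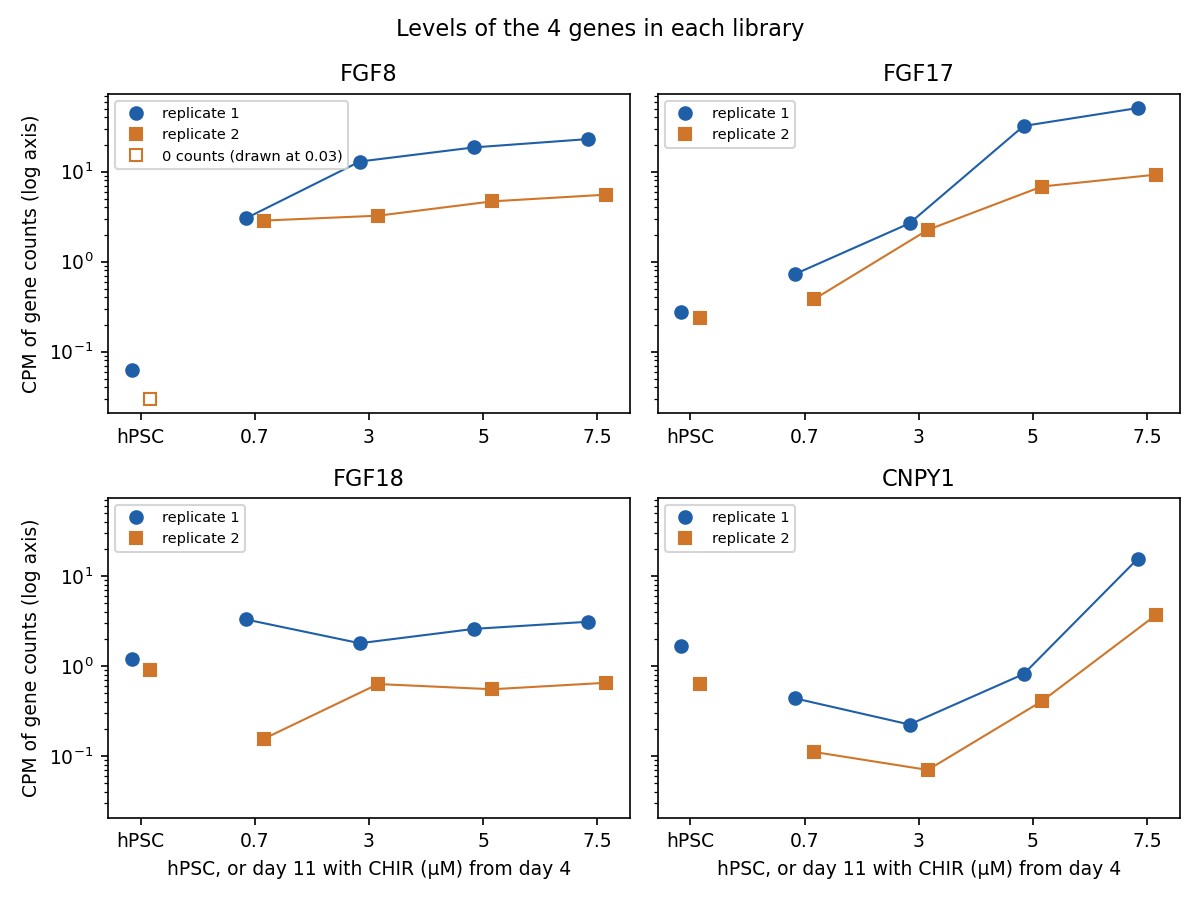
Levels of FGF8, FGF17, FGF18 and CNPY1 in each of the 10 libraries, in CPM on a log axis, for hPSC and for day 11 cultures by CHIR concentration (µM); circles are replicate 1, squares replicate 2, lines join same-numbered day 11 libraries, and the open square is a count of 0. FGF17 climbs between 0.7 and 5 µM, CNPY1 between 3 and 7.5 µM, and FGF18 stays between 0.156 and 3.31 CPM.

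FGF8, the ligand most closely tied to the isthmus, was all but absent from the stem cells. It had 0.0619 and 0 CPM in replicates 1 and 2 of hPSC, which were 2 counts and 0 counts. At day 11 it had 3.02 and 2.86 CPM at 0.7 µM, 12.9 and 3.24 at 3 µM, 18.6 and 4.67 at 5 µM, and 23.0 and 5.55 at 7.5 µM. Every day 11 library was above both hPSC libraries, and the libraries at 3, 5 and 7.5 µM were all above both at 0.7 µM. Higher CPM without overlap was found for 26.1% of all tested genes at 7.5 against 0.7 µM, for 7.4% at 5 µM and for 4.39% at 3 µM. Against hPSC it was found for 23% at 0.7 µM, 23.1% at 3 µM, 25.4% at 5 µM and 34.5% at 7.5 µM. Replicate 1 carried most of the difference: FGF8 was 7.61 times as high at 7.5 as at 0.7 µM in replicate 1 and 1.94 times as high in replicate 2. The log2 fold change at 7.5 against 0.7 µM was 1.57 ± 0.51 (SE, 95% interval 0.44 to 2.71) and the adjusted p was 0.0753, so FGF8 missed the threshold. It passed with DESeq2 and the block (adjusted p = 0.0158), with no filter on low counts (adjusted p = 0.000482 in edgeR), without replicate 2 at 0.7 µM (log2 fold change 2.85, adjusted p = 0.00886) and without replicate 1 at 3 µM (1.63, adjusted p = 0.0486). At 5 against 0.7 µM the log2 fold change was 1.56 ± 0.51 (adjusted p = 0.247) and at 3 against 0.7 µM it was 1.16 ± 0.51 (adjusted p = 0.656); the first passed with DESeq2 and the block (adjusted p = 0.0442), with no filter (adjusted p = 0.00244) and without replicate 2 at 0.7 µM (2.83, adjusted p = 0.0168). Its mean CPM was lowest in hPSC and higher at each concentration than at the one before, except that with TMM scaling the mean was 13.0 at 7.5 µM and 13.4 at 5 µM. Of the neighbours in that order only 0.7 µM and hPSC differed in the test.

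FGF17, a close relative of FGF8, was called at 5 and at 7.5 µM against 0.7 µM. It had 0.279 and 0.239 CPM in hPSC replicates 1 and 2. At day 11 it had 0.731 and 0.380 CPM at 0.7 µM, 2.66 and 2.25 at 3 µM, 32.2 and 6.83 at 5 µM, and 50.9 and 9.26 at 7.5 µM. No group overlapped another except 5 and 7.5 µM, and higher CPM without overlap was found for 34.6% of genes at 7.5 against 3 µM and for 11.2% at 5 against 3 µM. FGF17 rose by 5.22 at 7.5 against 0.7 µM (adjusted p = 0.000874) and by 4.92 ± 0.56 at 5 against 0.7 µM (adjusted p = 0.00404, in a comparison that called 1.13% of genes, 0.706% of all genes as higher). Within each replicate number the 7.5 µM library was higher than the 0.7 µM library, 69.6-fold in replicate 1 and 24.4-fold in replicate 2. At 3 against 0.7 µM the log2 fold change was 2.46 ± 0.56 (adjusted p = 0.252) in a comparison where 0.0214% of genes passed; it passed with DESeq2 and the block (adjusted p = 0.000916), with no filter (adjusted p = 3.80e-06) and without replicate 1 at 3 µM (3.17, adjusted p = 0.0480). At 7.5 against 5 µM it was 0.30 ± 0.44, with a 95% interval of -0.68 to 1.27. Over the 4 concentrations FGF17 rose by 1.61 ± 0.22 per doubling of CHIR (log2 scale, adjusted p = 0.0114, with 1.19% of genes called and 0.722% called with an upward slope), and was the one of the 4 genes called in that trend. Without the block its adjusted p was 0.267 at 7.5 against 0.7 µM and 0.138 for the trend, which called 0.134% of genes. Without replicate 1 at 0.7 µM the change at 5 against 0.7 µM was 4.39 (adjusted p = 0.0728) and the trend 1.49 (adjusted p = 0.137), both with the block.

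FGF18, the third ligand of the subfamily, did not pass between any 2 concentrations and was higher in replicate 1 throughout. It had 1.21 and 0.918 CPM in hPSC replicates 1 and 2. At day 11 it had 3.31 and 0.156 CPM at 0.7 µM, 1.80 and 0.634 at 3 µM, 2.60 and 0.555 at 5 µM, and 3.12 and 0.655 at 7.5 µM. The 4 day 11 groups overlapped one another, and in each of them the hPSC libraries lay between replicates 1 and 2. The log2 fold change at 7.5 against 0.7 µM was 0.44 ± 0.56 (adjusted p = 0.642), with a 95% interval of -0.80 to 1.69 that leaves room for a change of over 2-fold. Without the block the value was -0.02. The lowest library, replicate 2 at 0.7 µM, held 7 counts of FGF18 in 44.8 M gene counts, so its value rests on very few reads.

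CNPY1 was high at the top concentration alone. It had 1.67 and 0.638 CPM in hPSC replicates 1 and 2. At day 11 it had 0.438 and 0.112 CPM at 0.7 µM, 0.225 and 0.0704 at 3 µM, 0.818 and 0.409 at 5 µM, and 15.6 and 3.71 at 7.5 µM. Both libraries at 7.5 µM stood above all 8 others, those of hPSC included, and 28.5% of genes were higher at 7.5 than at 5 µM without overlap. CNPY1 rose by 4.90 at 7.5 against 0.7 µM (adjusted p = 0.000603), 35.6-fold within replicate 1 and 33.2-fold within replicate 2. It rose by 5.49 ± 0.51 at 7.5 against 3 µM (adjusted p = 0.00112), where 20.7% of genes passed (10.4% higher) and FGF17 also rose, by 2.76 ± 0.49 (adjusted p = 0.00674). At 7.5 against 5 µM CNPY1 rose by 3.48 ± 0.43 (adjusted p = 0.00993), the one of the 4 genes called where 6.53% of all genes were (3.22% higher). That last call was lost without either library at 5 µM (3.09, adjusted p = 0.0944, without replicate 1, and 3.78, adjusted p = 0.0856, without replicate 2), and FGF17 at 7.5 against 3 µM was lost without replicate 1 at 3 µM (2.0, adjusted p = 0.0765). At 5 against 3 µM none of the 4 genes passed and 0% of genes did with edgeR and the block (527 at an unadjusted p under 0.05), where DESeq2 with the block called 33 genes, FGF17 among them (adjusted p = 0.000321). FGF17 also passed there with no filter on low counts (adjusted p = 1.59e-07). The trend of CNPY1 per doubling was 1.43 ± 0.38 (adjusted p = 0.130). Without the block its adjusted p at 7.5 against 0.7 µM was 0.290. An antisense gene, AC008060.2, overlaps CNPY1, and whether the counting used strand is not given in the sources used here; it had 0 to 5 counts in these libraries.

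**Figure D2:**
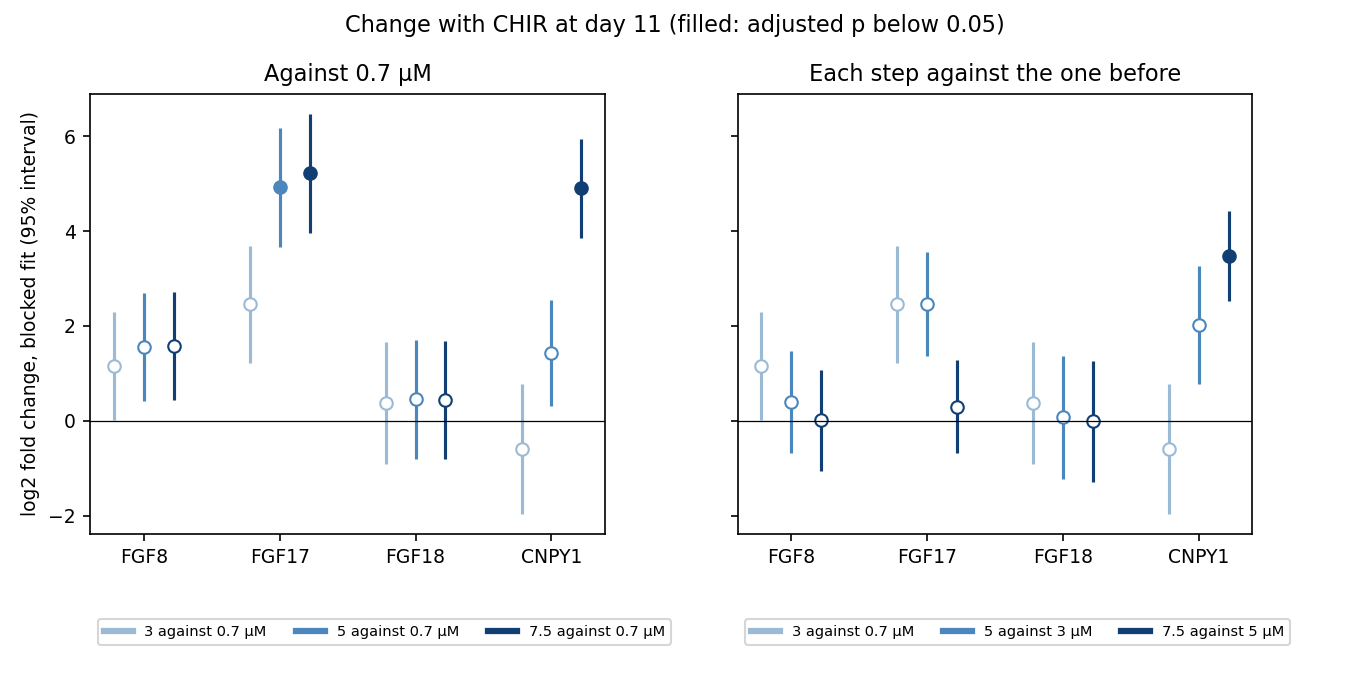
Log2 fold changes of the 4 genes at day 11 with 95% intervals, from the edgeR fit with the replicate block, against 0.7 µM (left) and for each concentration against the one before it (right); filled points have an adjusted p under 0.05. FGF17 is filled at 5 and 7.5 µM against 0.7 µM, and CNPY1 at 7.5 µM against 0.7 µM and against 5 µM.

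Against the undifferentiated cells, FGF8 passed the test at all 4 concentrations. FGF17 was also above both hPSC libraries at each concentration but did not pass at 0.7 µM. In the 2 hPSC libraries together FGF8 had 2 counts. Ratios of its counts, scaled by library size, are therefore given with 95% intervals for counting error alone. The ratio to hPSC was 83.5 (22.8 to 694) at 0.7 µM, 228 (62.6 to 1886) at 3 µM, 285 (78.4 to 2356) at 5 µM and 415 (115 to 3433) at 7.5 µM. FGF8 passed edgeR's test against hPSC over 19672 genes at each concentration without a block (adjusted p = 0.0381 at 0.7 µM and 0.0172 to 0.0177 at the others), where 11.4% of genes were called at 0.7 and 5 µM, 13.7% at 3 µM and 10.1% at 7.5 µM. With a block within day 11 it passed too, and the shares of genes called were 46.1% at 0.7 µM, 50.1% at 3 µM, 48% at 5 µM and 34.8% at 7.5 µM. Without the block the call at 3, 5 and 7.5 µM was lost without replicate 1 of the tested concentration, at 0.7 µM without either of its libraries or replicate 2 at 7.5 µM, and at all 4 concentrations without either hPSC library.

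FGF17 rose against hPSC by 3.64 ± 0.58 at 3 µM (adjusted p = 0.000356), 6.10 ± 0.58 at 5 µM (adjusted p = 1.02e-05) and 6.40 ± 0.58 at 7.5 µM (adjusted p = 7.07e-06), with the block. Without the block it passed at 5 and 7.5 µM and had an adjusted p of 0.0720 at 3 µM. At 0.7 µM its change was 1.18 ± 0.66 (adjusted p = 0.163). CNPY1 was on both sides of the stem cell level: with the block it fell by 2.20 ± 0.55 at 0.7 µM (adjusted p = 0.00660) and by 2.79 ± 0.61 at 3 µM (adjusted p = 0.00283), was at -0.77 ± 0.50 at 5 µM (adjusted p = 0.219), and rose by 2.70 ± 0.45 at 7.5 µM (adjusted p = 0.000653). Without the block CNPY1 did not pass at any concentration, with an adjusted p of 0.110 at 7.5 µM. FGF18 did not pass against hPSC at any concentration, with a change of 0.39 ± 0.53 at 7.5 µM (adjusted p = 0.605). These comparisons share the hPSC libraries. In bulk RNA, fewer cells that express a gene and less RNA per cell cannot be told apart.

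Levels of different genes were set side by side as CPM per kilobase of exon (RPKM), since the genes differ in exon length, from 1.403 kb for FGF8 to 3.615 kb for CNPY1. In hPSC the order was FGF18 with 0.535 ± 0.103 RPKM, CNPY1 with 0.320 ± 0.202, FGF17 with 0.0788 ± 0.00845 and FGF8 with 0.0221 ± 0.0312 (SD, n = 2). At 0.7 µM FGF8 led with 2.10 ± 0.0811 RPKM, ahead of FGF18 with 0.873 ± 1.1, FGF17 with 0.169 ± 0.0755 and CNPY1 with 0.0761 ± 0.0639. At 7.5 µM FGF8 had 10.2 ± 8.79 RPKM and FGF17 9.15 ± 8.95, which were within their spread of each other, followed by CNPY1 with 2.67 ± 2.33 and FGF18 with 0.950 ± 0.877.

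The make-up of the 3 ligands shifted with it. Of the sum of FGF8, FGF17 and FGF18 per kilobase, FGF17 made up 5.50% and 5.18% at 0.7 µM in replicates 1 and 2, 7.41% and 20.7% at 3 µM, 40.2% and 36.5% at 5 µM, and 46.3% and 39.7% at 7.5 µM. FGF18 made up 82.5% and 86.4% of that sum in hPSC, and 41.3% and 3.53% in replicates 1 and 2 at 0.7 µM. Its share was 8.29% and 9.63% at 3 µM, and 4.64% to 5.38% in the 4 libraries at 5 and 7.5 µM. FGF8 held the largest share per kilobase in each of the 8 day 11 libraries, at 49.0% to 91.3%. That order depends on the exon lengths used. By counts alone FGF17 had the largest share at 5 µM (60.3% and 56.7% in replicates 1 and 2) and at 7.5 µM (66.1% and 59.9%). At 0.7 µM in replicate 1, FGF18 had 46.9% of the counts and FGF8 42.8%. The ratio within a library does not depend on library size: FGF17 per kilobase was 0.103 and 0.0567 times FGF8 at 0.7 µM, 0.0878 and 0.297 times at 3 µM, 0.739 and 0.624 times at 5 µM and 0.945 and 0.712 times at 7.5 µM. In both replicates the ratio at 5 µM was thus nearer to that at 7.5 µM than to that at 3 µM. For CNPY1 to FGF17 the values at 5 and 7.5 µM lay far apart: there were 0.0254 and 0.0598 CNPY1 counts per FGF17 count at 5 µM, and 0.307 and 0.401 at 7.5 µM.

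**Figure D3:**
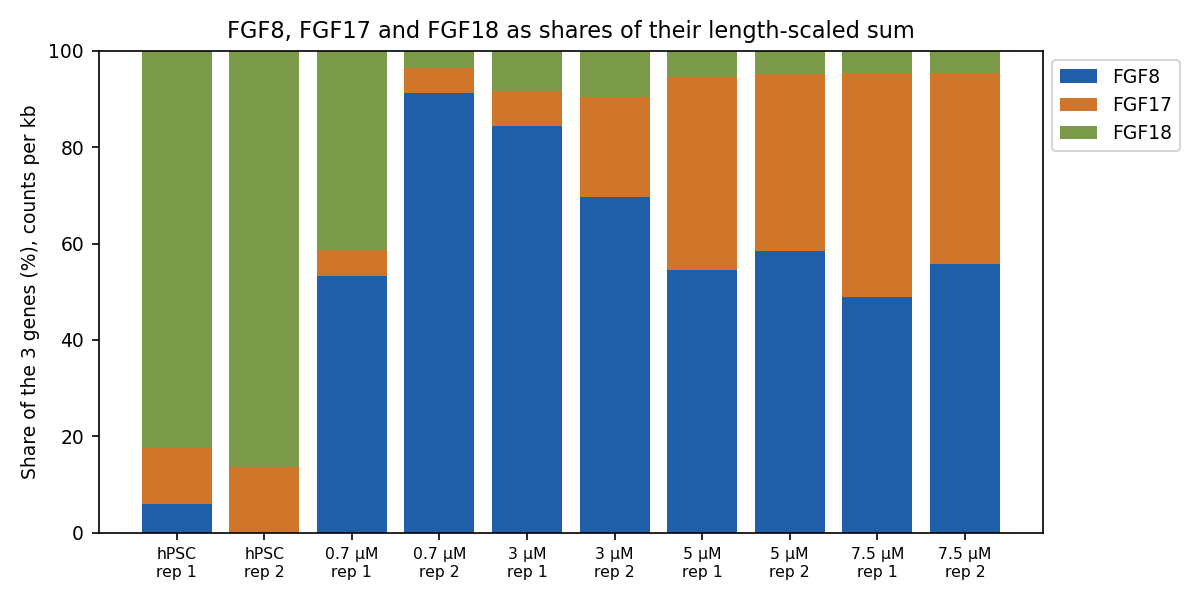
Shares (%) of FGF8, FGF17 and FGF18 in their sum, after scaling counts by exon length, in each hPSC and day 11 library; each bar sums to 100. FGF18 takes over 80% in both hPSC libraries, and FGF17 takes 36.5% to 46.3% at 5 and 7.5 µM.

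All 4 genes were higher in replicate 1 than in replicate 2 at every concentration, which was so for 25.4% of the tested genes. FGF8 differed between the numbers by 4.00-, 3.98- and 4.14-fold at 3, 5 and 7.5 µM and by 1.06-fold at 0.7 µM. FGF17 differed by 1.92- and 1.18-fold at 0.7 and 3 µM and by 4.71- and 5.50-fold at 5 and 7.5 µM. CNPY1 stood 2.0- to 4.21-fold higher in replicate 1, and FGF18 2.84- to 21.2-fold, a difference of over 2-fold in all 4 groups that 1.91% of genes showed. The FGF/ERK feedback and target genes ran the other way: all 12 were higher in replicate 2 at 0.7, 3 and 5 µM, and 10 of 12 at 7.5 µM. The share of all genes with replicate 2 higher was not computed. Other lists leaned the same way, so this direction was not particular to FGF feedback genes. From the lowest concentration to the highest, 7, 8, 9 and 6 of 10 WNT feedback targets were higher in replicate 2. For the FGF receptors it was 3, 3, 5 and 3 of 5. The 3 canopy genes beside CNPY1 were higher in replicate 1 throughout. SPRY4, which restrains receptor signalling to ERK, had 0.487 and 16.3 CPM in replicates 1 and 2 at 0.7 µM, and 20.0 and 30.7 CPM at 7.5 µM. ETV5, a transcription factor downstream of FGF, had 8.57 and 45.2 CPM at 0.7 µM, and 97.1 and 76.8 at 7.5 µM. What the replicate number stands for is not given in the labels, and its part in these levels was not tested.

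The feedback and target genes were next counted by concentration. At 7.5 against 0.7 µM, 9 of the 12 rose and none fell, where 5.64% of all genes were called higher. Their median log2 fold change was 1.87, that of all genes tested 0.07. SPRY1, an inhibitor of receptor signalling, rose by 2.89 ± 0.47 (adjusted p = 0.00527), its relative SPRY4 by 2.83 ± 0.79 (adjusted p = 0.0466) and SPRY2 by 2.25 ± 0.40 (adjusted p = 0.00863). ETV1, ETV4 and ETV5 rose by 2.75 ± 0.58, 2.69 ± 0.51 and 1.90 ± 0.53. The summed level of the list was 846 to 1041 CPM at 7.5 µM, against 195 to 529 CPM at 0.7 µM. It was higher still in hPSC, at 1393 to 1758 CPM, and against hPSC 1 of the 12 was higher and 5 lower at 7.5 µM (16.6% of all genes higher, 18.1% lower), and 1 higher and 11 lower at 0.7 µM (21% higher, 25% lower). Without replicate 1 at 0.7 µM, 1 of the 12 passed at 7.5 against 0.7 µM, with a median of 1.25, and 3.83% of all genes passed in place of 10.5%; that fit also has fewer libraries. At 5 against 0.7 µM none of the 12 passed with the block (median 1.06, against 0.02 for all genes), in a comparison that called 1.13% of genes. At 7.5 against 5 µM, where 6.53% of genes were called, none of the 12 passed (median 0.63, against 0.06).

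Among the receptors, 2 of 5 fell at 7.5 against 0.7 µM and none rose (median -1.02), where 4.87% of all genes were called lower. FGFR3 had 3.86 and 4.36 CPM at 7.5 µM, against 75.5 and 86.6 CPM at 0.7 µM, and fell by 4.47 ± 0.32 on the log2 scale (adjusted p = 0.000264). FGFR4 had 1.54 and 0.966 CPM at 7.5 µM, against 4.68 and 3.11 CPM at 0.7 µM, and fell by 1.80 ± 0.43 (adjusted p = 0.0270). FGFR1, which binds many FGF ligands, had 412 and 433 CPM at 7.5 µM, against 354 and 493 CPM at 0.7 µM, with a log2 fold change of -0.15 ± 0.25 that did not pass. FGFR2 had 28.5 and 79.7 CPM at 7.5 µM, against 69.1 and 102 CPM at 0.7 µM (-1.02 ± 0.30, adjusted p = 0.0598). Without replicate 1 at 0.7 µM, or with the 2 groups fitted alone, 1 of the 5 receptors passed.

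Of the 15 other FGF ligands listed, 7 passed the filter on low counts, and 2 of these rose at 7.5 against 0.7 µM and none fell (median 0.98), beside 5.64% of all genes called higher. FGF19, a ligand that acts through FGFR4 in liver, had 4.63 and 0.842 CPM at 7.5 µM, against 0 and 0.0894 CPM at 0.7 µM, a change of 4.91 ± 0.99 (adjusted p = 0.0135). That change rests on 0 and 4 counts at 0.7 µM, and FGF19 had 4.12 and 6.19 CPM in hPSC. FGF20 had 1.19 and 3.06 CPM at 7.5 µM, against 0 and 0.0447 CPM at 0.7 µM, with 138 against 2 counts and a ratio of 68.5 (95% interval 18.6 to 571, counting error alone). Neither passed without replicate 1 at 0.7 µM, and 1 of the 2 passed without replicate 2 at 0.7 µM. None of the other 3 canopy genes passed: the log2 fold change was 0.01 ± 0.33 for CNPY2, -0.53 ± 0.30 for CNPY3 and 0.22 ± 0.26 for CNPY4.

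The boundary factors, 8 transcription factors and the ligand WNT1, differed among themselves. Of the 9 listed, 8 were tested, and 5 rose and none fell at 7.5 against 0.7 µM (median 1.79), where 5.64% of all genes were called higher and 4.87% lower. EN2 had 5.44 and 2.59 CPM at 7.5 µM, against 0 and 0.0223 CPM at 0.7 µM, which is 266 against 1 counts and a ratio of 264 (47.0 to 10471). Its level was 0 and 0.0352 CPM at 3 µM, 0.433 and 0.380 CPM at 5 µM, and 2.48 and 0.160 CPM in hPSC. PAX5, which acts with the EN factors at the border, rose by 4.36 ± 0.64 (adjusted p = 0.00350), EN1 by 3.95 ± 0.58 (adjusted p = 0.00351) and PAX2 by 2.13 ± 0.38 (adjusted p = 0.00802). The other PAX gene of the list, PAX8, had 7.40 and 3.15 CPM at 7.5 µM, against 7.80 and 7.75 CPM at 0.7 µM. PAX8 was not called, and it was added after its values were seen. OTX2 had 343 and 340 CPM at 7.5 µM, against 89.1 and 134 CPM at 0.7 µM, and rose by 1.45 ± 0.26 (adjusted p = 0.00911). GBX2 and WNT1 are given because of their place at the border, chosen after their values were seen. GBX2 had 0.386 and 0.592 CPM at 7.5 µM, against 0.926 and 0.179 CPM at 0.7 µM (-0.10 ± 0.78, not called), and WNT1 had 1 count in each library at 7.5 µM, against 4 and 13 at 0.7 µM, and did not pass the filter on low counts. WNT1 was thus under the floor of 3 counts in both libraries at 7.5 µM, and GBX2, with 13 and 19 counts there, was above it.

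**Figure D4:**
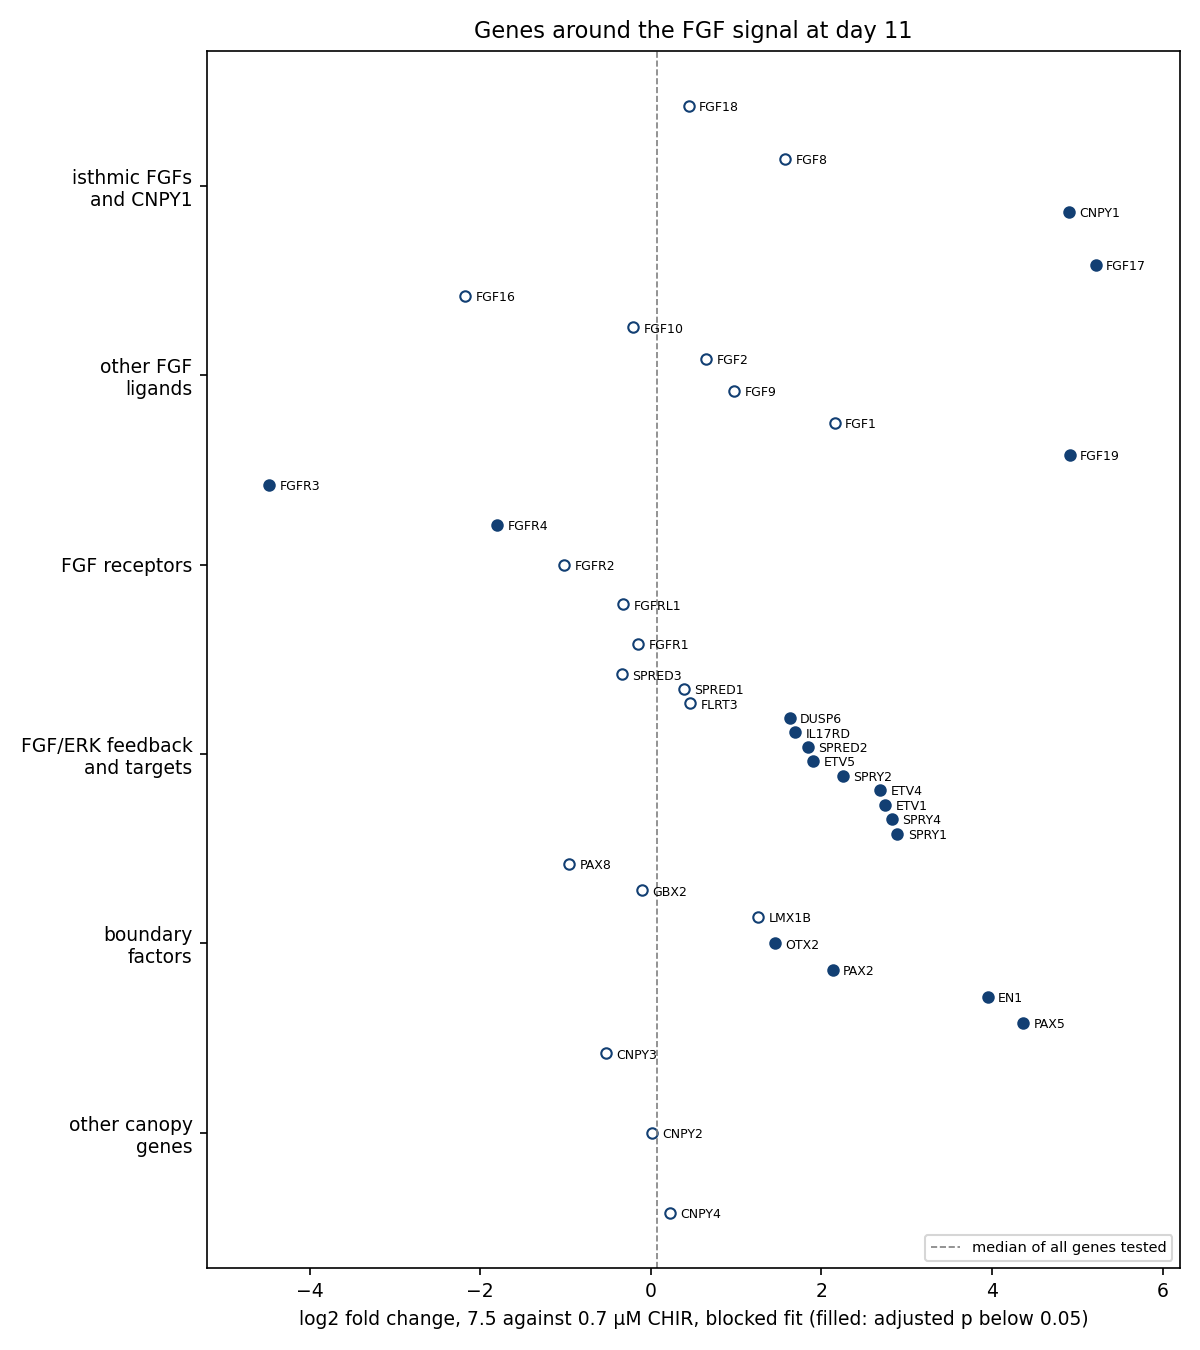
Log2 fold changes at 7.5 against 0.7 µM CHIR (edgeR with the replicate block) of the 4 genes and of the FGF ligands, receptors, feedback genes, boundary factors and canopy genes tested; filled points have an adjusted p under 0.05 and the dashed line is the median of all genes tested (0.07). FGF20 and EN2, with 2 and 1 counts at 0.7 µM, are left out. Where a group had 1 to 3 counts, the scaled ratio of counts replaces the fitted change. Most feedback genes lie between 1.63 and 2.89 and FGFR3 lies at -4.47.

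Markers of other regions and cell types moved between the same groups, and their part in the levels of the 4 genes was not tested. Of the WNT feedback targets, 9 of 10 rose at 7.5 against 0.7 µM (5.64% of all genes called higher, 4.87% lower, which holds for the counts that follow), and their summed level was 1780 to 2157 CPM at 7.5 µM, against 221 to 345 CPM at 0.7 µM. Markers of caudal epiblast and mesoderm, a tissue that also expresses FGF8 and FGF17 in the embryo, summed to 27.6 to 37.7 CPM over 11 genes at 7.5 µM, against 9.40 to 24.6 CPM at 0.7 µM. Of the 8 of these that were tested 4 rose and 1 fell. T (brachyury) had 1080 counts at 7.5 µM, against 1 at 0.7 µM, and CDX2 had 737 counts, against 0, while CDX4 was at 0 in both libraries at 7.5 µM. HES7, a target of Notch signalling in the paraxial mesoderm, was the one that fell, with 1.75 and 1.37 CPM at 7.5 µM, against 8.33 and 23.8 CPM at 0.7 µM, and made up most of the sum at 0.7 µM. Markers of anterior forebrain, where FGF8 and FGF17 are also made in the embryo, summed to 5.14 to 5.86 CPM over 8 genes at 7.5 µM, against 14.0 to 17.4 CPM at 0.7 µM, and 2 of the 5 tested fell. Most of that sum at 0.7 µM was NKX2-1, a factor of the ventral forebrain, with 0 and 0.125 CPM at 7.5 µM, against 13.4 and 8.69 CPM at 0.7 µM, and SIX3 was the other that fell. EMX2, a factor of the dorsal forebrain, had 1.51 and 2.06 CPM at 7.5 µM, against 0.0974 and 0.648 CPM at 0.7 µM, and was not called. SIX6 was at 0 in both libraries at 7.5 µM, against 5 counts and 1 count at 0.7 µM. Neural progenitor markers summed to 1471 to 1708 CPM at 7.5 µM, against 1377 to 2961 CPM at 0.7 µM, with 1 of 9 lower and none higher, and 0 of the 4 tested pluripotency markers passed.

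Across the 8 day 11 libraries, levels of the 4 genes were compared with those of about 12450 other genes by Pearson correlation of log2 CPM. These points share the replicate number as well as the concentration, and the values are descriptions. A high r does not mean a change of like size. Between the 4 genes themselves r was 0.83 for FGF8 with FGF17, 0.75 for FGF17 with CNPY1, 0.62 for FGF8 with FGF18, 0.60 for FGF8 with CNPY1, 0.45 for FGF17 with FGF18 and 0.41 for FGF18 with CNPY1. The genes most like FGF8 were GMDS (0.973), CXCR4, a chemokine receptor (0.971), PSMD6, CDC26 and CFL1. GMDS averaged 15.4 CPM at 0.7 µM and 17.3 at 7.5 µM, where FGF8 averaged 2.94 and 14.3. Those most like FGF17 were BRF2 (0.979), PHC2 (0.977), TAGLN, WNT4 and ALPL. WNT4, a secreted WNT ligand, averaged 4.78 CPM at 0.7 µM, 11.5 at 3 µM, 25.6 at 5 µM and 40.0 at 7.5 µM, climbing over the same concentrations as FGF17. Those most like CNPY1 were CCT6A (0.991), NT5C3A (0.990), MAPK1IP1L, TLL2 and FANCA. CCT6A averaged 228 CPM at 0.7 µM and 319 at 7.5 µM. TLL2 averaged 0.460, 0.501, 0.715 and 7.04 CPM over the 4 concentrations, with the same step at 7.5 µM. The 5 most like FGF18 were U47924.30 (0.993), ZNF511 (0.993), CLN6, KLHDC3 and SLC35B1, and all 5 were higher in replicate 1 at every concentration.

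In the later cultures of the 7.5 µM protocol FGF8 was not detected and the other genes had few counts. FGF8 had 0 counts in all 4 libraries, which allows up to 0.473 to 0.555 CPM at their depth of 5.41 to 6.34 M gene counts. CNPY1 had 6.47 and 3.88 CPM in replicates 1 and 2 labelled day 16 and 1.41 and 0.732 CPM in those labelled day 30. FGF17 had 0.789 and 0.370 CPM at day 16 and 1.94 and 0.915 CPM at day 30. For the first of these ages the series text has day 20 in place of day 16. Since these tables were counted apart and no test was run on them, no change over time is stated. Gene counts in the hPSC and day 11 libraries came to 20.5 to 44.8 M, and the floor of 3 counts was 0.0670 to 0.146 CPM.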

How the data were processed

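RNA-seq of total RNA was deposited as read counts per gene, 1 table for each of 14 libraries. The submitters' processing notes list hg19 as the build, and HTSeq 0.5.3, STAR 2.4.2a, DESeq2 1.12.4 and featureCounts 1.4.2 as tools of the authors. Kit, strand setting and counting rules were not given in the sources used here. In 10 of the tables, those of hPSC and day 11, 5 summary entries with 37.4% to 44.3% of all counts were dropped before library sizes were summed. CPM are counts per 1000000 gene counts, and RPKM use union exon lengths of GENCODE 29, joined by gene identifier.

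In R 4.3.3, edgeR 4.0.16 with limma 3.58.1 tested the deposited counts by robust quasi-likelihood F-tests after TMM scaling and filterByExpr. Benjamini-Hochberg adjustment ran over all tested genes, with a threshold of 0.05. The 8 day 11 libraries served for the 6 pairs of concentrations and for the trend over log2 concentration, and comparisons with hPSC used 10. The fit without a block was the design written down, and the replicate number as a block was the alternative, taken for the wording because the numbers pair the day 11 libraries: deviations of same-numbered libraries correlated at 0.70 to 0.92, and in the sample descriptions the day 11 libraries of one number have a code in common. Against hPSC the block covers day 11 only. SE is the log2 fold change divided by the root of F. Scripts were tested on simulated data. Depth was 20.5 to 44.8 M gene counts, and intervals and floors (3 counts, 95%) cover counting error only.

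Alternatives were DESeq2 1.42.0, RLE scaling, no filter, fits on the 2 groups alone and each library left out. The 4 genes and the gene lists were chosen with earlier results of these data known. Genes named are the 4 genes, up to 6 of each list by size of change, those called first, and the 5 most correlated genes with at least 5 CPM in a group mean (log2 of CPM + 0.5), with exceptions stated. Where a group had 1 to 3 counts, the scaled ratio of counts replaces the fitted change. Day 16 and day 30 tables (57820 genes) were used for levels only.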

Additional observations from a re-analysis of the deposited data

Results flagged for a closer look

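The tables labelled day 16 and day 30, which no comparison used, held reads of 3 of the 4 genes above the 3 counts that a count of 0 allows. CNPY1 had 41 and 21 counts in replicates 1 and 2 at day 16 and 8 and 4 counts at day 30. FGF17 had 5 counts in replicate 1 at day 16 (2 in replicate 2) and 11 and 5 counts at day 30. FGF18 had 4 and 4 counts at day 16, and 0 and 1 at day 30. These cultures have no control group of the same age, and no test was run.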

How the results depend on the processing

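Of the 4 genes, none was called by edgeR without the block in any of the 6 day 11 pairs or the trend, whatever library was left out. With the replicate block 2 were called at 7.5 against 0.7 µM, 1 at 5 against 0.7 µM, 0 at 3 against 0.7 µM, 2 at 7.5 against 3 µM, 1 at 7.5 against 5 µM, 0 at 5 against 3 µM and 1 in the trend, and RLE scaling with the block gave the same counts. DESeq2 without the block called 2, 1, 0, 2, 1, 0 and 1 in that order, DESeq2 with the block 3, 2, 1, 2, 1, 1 and 2, and no filter with the block 3, 2, 1, 2, 1, 1 and 1. Of all genes, DESeq2 without the block called 3.51%, 0.69%, 0.0909%, 4.85%, 1.09%, 0% and 1.76%. With the block it called 16.1%, 3.27%, 1.05%, 24.9%, 14.8%, 0.176% and 4.34%. No filter with the block called 10.7%, 2.46%, 1.01%, 15.6%, 9.86%, 0.233% and 1.2%. The edgeR fit with the block called 10.5%, 1.13%, 0.0214%, 20.7%, 6.53%, 0% and 1.19%. Using only the 2 groups at 7.5 and 0.7 µM with the block gave 2, where 5.72% of all genes were called. Leaving out each library with the block gave 2 to 3, 0 to 2, 0 to 1, 1 to 2, 0 to 1, 0 and 0 to 1. FGF17 and CNPY1 at 7.5 against 0.7 µM passed in all 12 alternatives with the block (adjusted p up to 0.0154 and 0.00852). Against hPSC 1 gene each was called at 0.7 and 3 µM and 2 each at 5 and 7.5 µM, and 0 to 1 at 0.7 µM and 0 to 2 at the others without 1 library. At 3 µM DESeq2 and the 2 groups alone gave 2 (26.7% and 14.6% of all genes called) and the block 3 (50.1%). With the block 2 were called at 0.7 µM and 3 at 7.5 µM. No direction of a called value turned. Genes called at 7.5 against 0.7 µM numbered 0 without and 1967 with the block, and between 754 and 5613 without 1 library, with the block. FGF18 at 0.7 µM and CNPY1 at 0.7 and 3 µM rest on 2 to 9 counts in some libraries, which limits their fold changes.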
